A study of Mus musculus with 6 samples.

Results

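Among the genes whose transcripts are lower in lung endothelial cells (EC) of young adult mice than in those of infant mice, 46 stood out for nearly equal levels in the 3 infant libraries. They were selected on their expression values, given as RPKM (reads per kilobase of transcript, scaled to the mapped reads of the library). With 1 transcript row per gene, a gene was chosen when its infant mean was at least 5, its highest infant value was at most 1.3 times the lowest, and its highest young adult value was at most 0.6 times the lowest infant value. Of 12623 genes, 7176 reached the infant level, 4419 of these were steady by the limit of 1.3, 329 were lower by the limit of 0.6, and 49 met both limits. Nid1, Col4a1 and Col4a2 were then left out by name, which left 46. Tgfbr2 was on the same list of names but missed the limit, with a ratio of 0.706.

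The study compared EC from growing and from resting lung vessels during the acquisition of quiescence by RNA-seq, with 3 libraries from infant and 3 from young adult C57BL/6N mice. According to its methods, female animals were obtained. By the ages given in its results, infants were in the second week after birth and young adults some weeks past weaning age. No transgene or treatment is named for either group in the sources used here. Lungs were digested with collagenase and living CD31+ CD34+ cells that lacked PTPRC, LYVE1, PDPN and LY76 were sorted, so that leukocytes, lymphatic EC and erythroid cells should have been removed. Whether a library came from 1 animal or from several was not given in the sources used here.

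Growing lung EC divide, migrate and lay down basement membrane, whereas resting EC keep the barrier and a surface that does not clot. Tissue factor starts coagulation and thrombin signals to EC through protease-activated receptors. Chemokine receptors such as CXCR4 guide migrating cells, integrins and laminins join cells to the matrix, and DNA methyltransferases together with Polycomb proteins write marks that can keep genes silent.

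General EC markers were present in all libraries, with a summed RPKM of 16 markers of 4244 to 6348 in infant and 6865 to 7180 in young adult EC. Of these markers none was called lower with limma and 1 was called higher (0 and 7 at an unadjusted p under 0.05). Transcripts of other cell types were present as well. Summed RPKM of 14 fibroblast markers was 393 to 1388 in infant and 15.8 to 32.7 in young adult libraries, and that of 14 mural cell markers was 103 to 289 and 15.2 to 22.0, with 13 genes of either list called lower. Globin transcripts took 11%, 3.41% and 23.5% of the RPKM in infant 1 to 3 and 0.307% to 0.487% in young adult libraries. Summed RPKM of 11 epithelial markers was 6400 to 11270 in infant libraries and 1812, 4773 and 8320 in young adult 1 to 3, and that of 15 leukocyte markers was 395 to 601 and 180, 362 and 617. Called lower were 8 of 8 erythroid, 4 of 11 epithelial and 6 of 15 leukocyte markers, and 1 epithelial marker was called higher. Transcripts of the Y chromosome were present in all infant libraries and in no young adult library, which goes against the female animals that the methods name. In sorted bulk samples of this kind, fewer cells of a type and less RNA per cell cannot be told apart.

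The sequences 250 bases upstream of the start site are shown for 6 of the genes, because these hold the shared motifs mentioned with F3 and F2r, with Hhip and Plk2, the TATAAA of Cxcr4, and the separate starts of Dnmt3a. They come from RefSeq on GRCm38.p6 and run 5′ to 3′ on the strand of the gene. Capitals mark matches, on either strand, to the motif words searched: TGACTCA (AP-1), TGACGTCA (CRE), GGGCGG (SP1), TATAAA (the TATA word), CCAAT (the CAAT box), CACGTG (E-box), GGAATG (TEAD), CCGGAAG (ETS) and TGTTTAC (FOX). Overlapping matches run together. The windows lie at chr3:121723287-121723536 on the plus strand (F3), chr13:95618467-95618716 on the minus strand (F2r), chr1:128592300-128592549 on the minus strand (Cxcr4), chr8:80058009-80058258 on the minus strand (Hhip), chr13:110394794-110395043 on the plus strand (Plk2) and chr12:3891494-3891743 on the plus strand (Dnmt3a). Those of F3, F2r, Cxcr4 and Plk2 end at the start of the gene and that of Hhip at a start site slightly inside it, and the Dnmt3a window lies inside the gene, directly before the start of its shorter transcript.
F3: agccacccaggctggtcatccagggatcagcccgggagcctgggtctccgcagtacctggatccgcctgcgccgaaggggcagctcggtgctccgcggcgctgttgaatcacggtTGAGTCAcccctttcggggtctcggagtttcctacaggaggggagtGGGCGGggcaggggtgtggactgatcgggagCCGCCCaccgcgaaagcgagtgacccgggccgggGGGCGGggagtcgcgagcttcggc
F2r: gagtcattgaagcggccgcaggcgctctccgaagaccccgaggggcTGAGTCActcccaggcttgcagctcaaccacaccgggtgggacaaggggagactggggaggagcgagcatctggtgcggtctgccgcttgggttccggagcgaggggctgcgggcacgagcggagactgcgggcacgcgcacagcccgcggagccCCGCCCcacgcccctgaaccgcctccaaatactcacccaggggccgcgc
Cxcr4: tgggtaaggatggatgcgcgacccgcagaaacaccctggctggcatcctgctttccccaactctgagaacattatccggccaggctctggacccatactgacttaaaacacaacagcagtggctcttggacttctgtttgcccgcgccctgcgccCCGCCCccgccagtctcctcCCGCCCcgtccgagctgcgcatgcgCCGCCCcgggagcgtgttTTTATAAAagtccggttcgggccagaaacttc
Hhip: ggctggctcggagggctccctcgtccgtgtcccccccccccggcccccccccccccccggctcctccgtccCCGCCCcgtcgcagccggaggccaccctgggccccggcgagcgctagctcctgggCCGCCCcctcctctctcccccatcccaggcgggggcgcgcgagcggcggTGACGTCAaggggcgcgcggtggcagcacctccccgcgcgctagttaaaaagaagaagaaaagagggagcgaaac
Plk2: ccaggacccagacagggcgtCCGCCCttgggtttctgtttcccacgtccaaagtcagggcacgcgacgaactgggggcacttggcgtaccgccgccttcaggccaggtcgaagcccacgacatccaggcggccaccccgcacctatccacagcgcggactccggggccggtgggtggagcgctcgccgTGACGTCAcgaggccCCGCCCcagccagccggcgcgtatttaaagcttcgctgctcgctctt
Dnmt3a: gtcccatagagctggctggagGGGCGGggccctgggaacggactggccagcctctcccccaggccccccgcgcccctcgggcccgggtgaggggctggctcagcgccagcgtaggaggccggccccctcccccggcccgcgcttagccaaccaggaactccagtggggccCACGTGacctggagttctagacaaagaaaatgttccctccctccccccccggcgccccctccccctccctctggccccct

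Across the 46 genes, infant means ran from 5.07 to 549 RPKM with a median of 13.0. The ratio of the young adult mean to the infant mean ran from 0 to 0.531 with a median of 0.378. The 3 infant values had a median coefficient of variation of 9.23%, which the limit of 1.3 keeps small, while the young adult values, for which no limit on spread was set, had one of 20.6%. All 46 passed the filter on low values and were called lower with limma (adjusted p under 0.05 and a fold above the threshold of the study on the scale of log2(RPKM + 1)), where 8.1% of all 12458 tested genes were called lower and 3.33% higher. Since the same values chose the genes, that count carries no information about them, and no p is given for any of the 46. Over all tested genes 1009 were lower and 415 higher, a split that became 629 and 529 with quantile normalization.

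**Figure D1:**
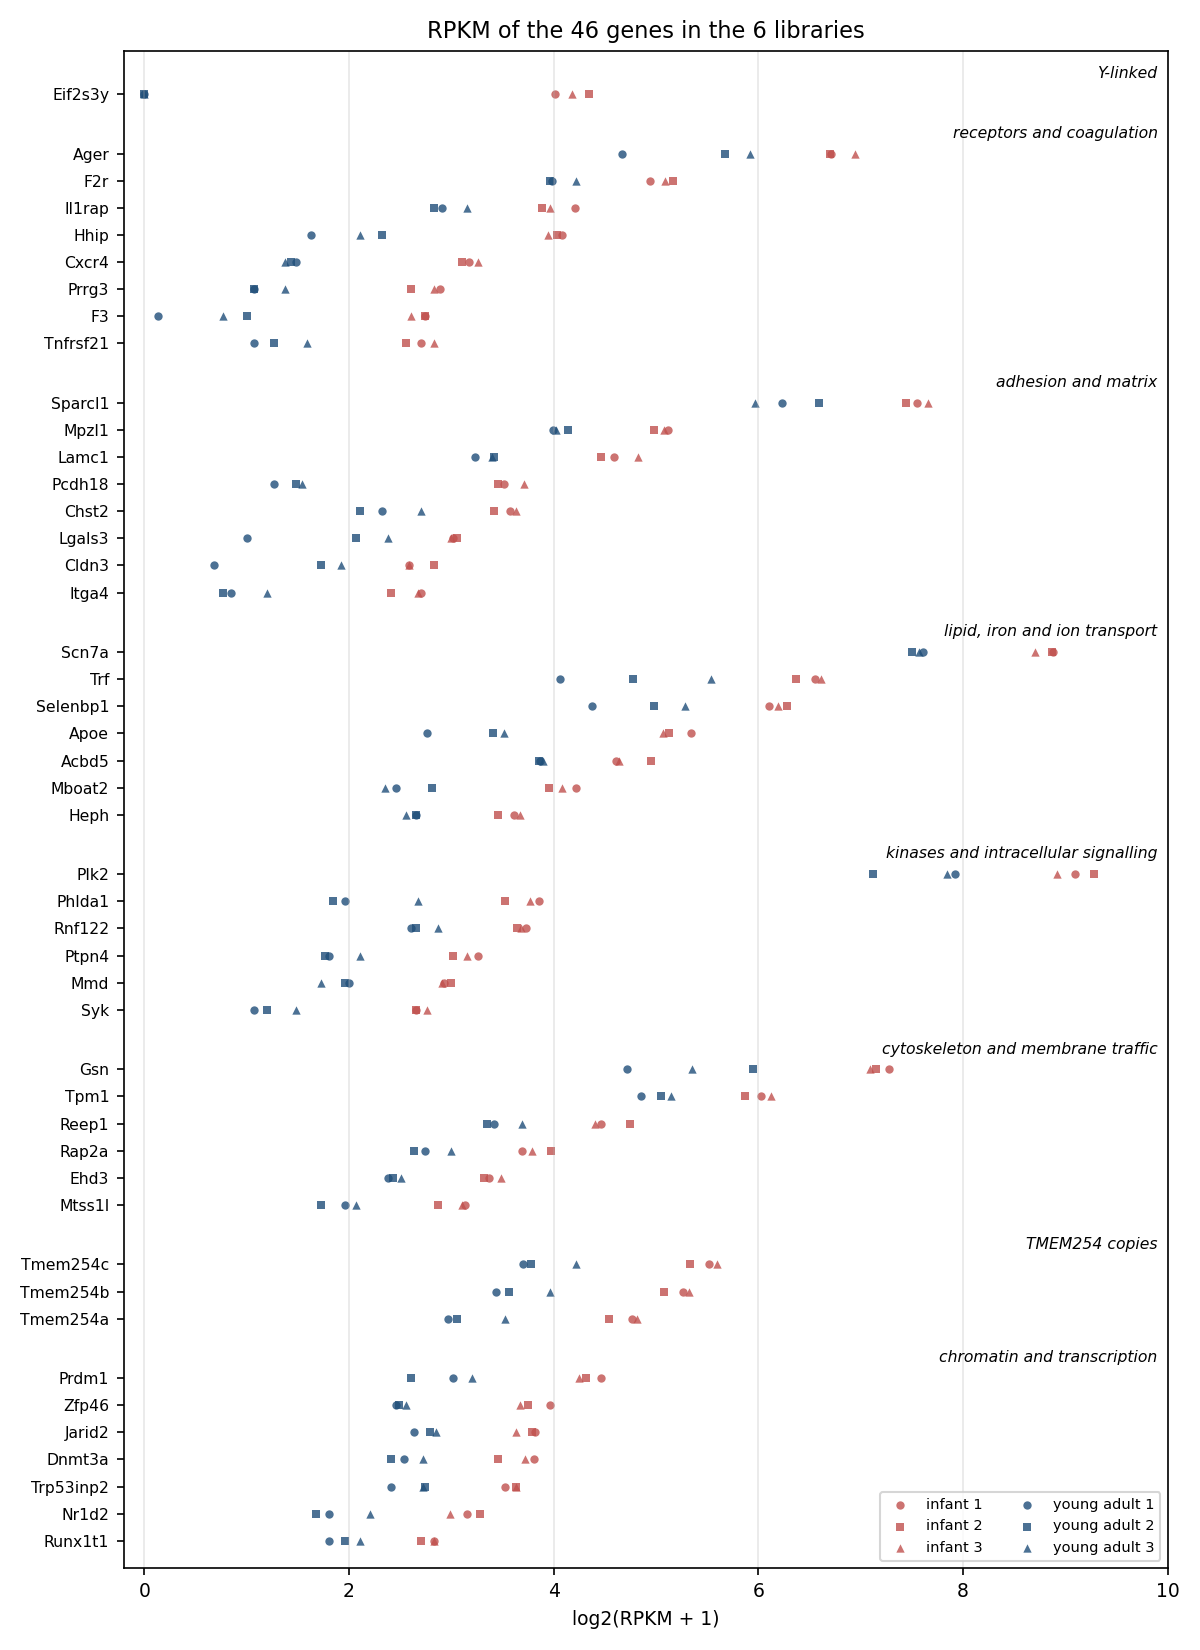
Each row is 1 of the 46 genes, grouped by role and ordered by infant mean within a role, with log2(RPKM + 1) on the x axis, 3 infant libraries in red and 3 young adult libraries in blue. No gene has overlapping groups, as the choice requires, and the infant points lie closer together than the young adult points in rows such as F3, Trf and Cldn3.

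The limits cut through a continuum of values. Dnmt3a sat exactly at the steadiness limit of 1.3, followed by Lamc1 at 1.29 and Phlda1 at 1.29. Slc12a2 at 1.31, Tgif1 at 1.32 and the Y-linked Ddx3y at 1.33 lay just outside it. Lgals3 and Runx1t1 were exactly at the limit of 0.6 for the fall and Tpm1 at 0.598, with Fam214a at 0.604, Dot1l at 0.604 and Gdpd5 at 0.607 just beyond. The lowest infant means inside were 5.07 for Itga4, 5.37 for Cldn3 and 5.47 for Syk, and the nearest outside were 4.97 for Spred1, 4.90 for Tmem136 and 4.8 for Pcdhb20.

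**Figure D2:**
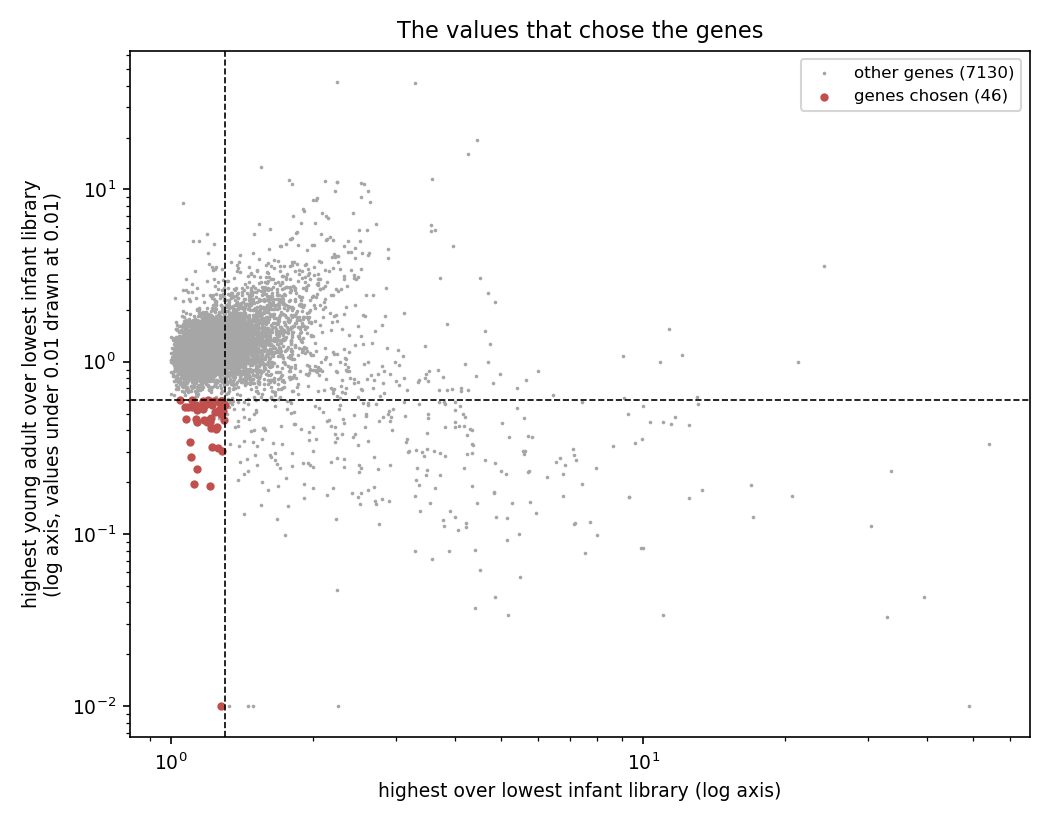
Each point is 1 of the 7176 genes with an infant mean of at least 5, with the highest over the lowest infant value on the x axis and the highest young adult over the lowest infant value on the y axis, both logarithmic, and dashed lines at 1.3 and 0.6. The 46 chosen genes fill the lower left corner, and most other genes below the line at 0.6 lie far to its right.

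Most genes that met the limit for the fall were not steady. Of the genes at the infant level, 280 met the limit of 0.6 but not that of 1.3, and infant 2 was the lowest of the 3 infant libraries for 238 of them (85.0%). Their fall was deeper, with a median ratio of means of 0.105 against 0.378 in the 46. That difference is in part built in, because the limit of 0.6 is set against the lowest infant value. In an unsteady gene this value lies further below the infant mean. The median of the infant 2 value over the mean of infant 1 and infant 3 was 0.402 in these 280 genes, 0.920 in the 46 and 1.02 in the 4370 steady genes that did not fall. Part of this contrast follows from the choice itself, because a gene that is steady cannot be far lower in 1 infant library. Infant 2 also had the smallest fibroblast, mural and globin signal of the infant libraries, and the part of that in the division between steady and unsteady genes was not tested. Infant 2 was the lowest infant library for 25 of the 46 (54.3%), infant 3 for 13 and infant 1 for 6, with 2 ties. Infant 2 was the lowest for 31.3% of all genes at the infant level and for 27.4% of the steady genes that did not fall.

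**Figure D3:**
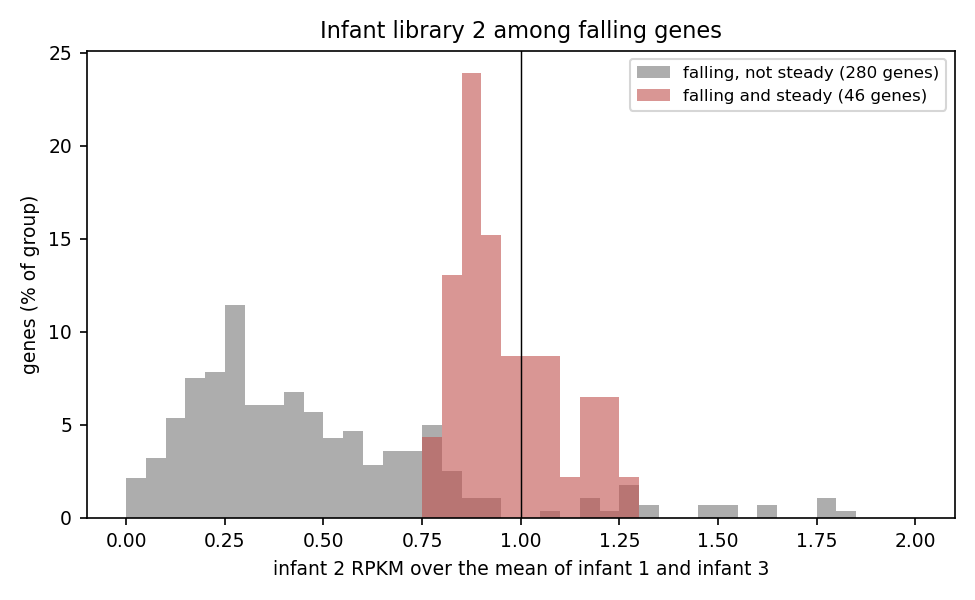
The x axis gives infant 2 RPKM over the mean of infant 1 and infant 3 and the y axis the share of genes, for the 280 falling genes that were not steady (grey) and the 46 that were (red). The grey median is 0.402 and the red median is 0.920.

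F3, the tissue factor that initiates coagulation, had the largest drop among the autosomal genes. Its RPKM was 5.7, 5.7 and 5.1 in infant 1 to 3 and 0.1, 1.0 and 0.7 in young adult 1 to 3, so that the young adult mean was 0.109 times the infant mean. Young adult 1 was close to the rounding step of 0.1 and stood apart from the other young adult libraries. F2r encodes PAR1, the thrombin receptor of EC, and had an RPKM of 29.8, 34.8 and 33.1 in infant and 14.8, 14.6 and 17.6 in young adult libraries. Both groups were tight for F2r and the ratio of means was 0.481. Of 7 other genes of the pathway tested with limma none was called lower (3 at an unadjusted p under 0.05) and 1 was called higher. Plat, the tissue plasminogen activator, was at 88.0, 43.6 and 85.1 RPKM in infant and 41.3, 40.4 and 34.4 in young adult EC (log2 change -0.82, adjusted p = 0.0506, not called). Tfpi, the inhibitor of the tissue factor pathway, was at 25.8 ± 1.06 in infant and 21.6 ± 1.11 RPKM in young adult EC (SD, n = 3, adjusted p = 0.0793 with limma, not called). Thbd, the thrombomodulin that turns thrombin towards anticoagulation, rose by 0.84 on the log2 scale (adjusted p = 0.0162), a call that was lost without infant 1, infant 3, young adult 1 or young adult 2 (adjusted p up to 0.0706) and also with scaling without globin genes or quantile normalization. Prrg3, a membrane protein with a Gla domain like that of the vitamin K dependent clotting factors, lies on the X chromosome and was at 6.4, 5.1 and 6.1 in infant and 1.1, 1.1 and 1.6 in young adult EC.

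The windows of F3 and F2r, printed above, were the 2 of 52 member windows with TGACTCA on either strand (3.85%), against 3.76% of the 11666 windows of all genes of the table. TATAAA was in 7 of the member windows (13.5%, against 7.45%), those of Apoe, Cxcr4, Eif2s3y, F3, Jarid2, Selenbp1 and Zfp46, and the match of F3 lay after the start and is not printed. GGGCGG was in 73.1% of the member windows and 61.4% of all, CCAAT in 32.7% and 37.6%, CACGTG in 3.85% and 9.69%, GGAATG in 7.69% and 12.5%, CCGGAAG in 5.77% and 17.2%, and TGTTTAC in 5.77% and 2.53%. Median GC content was 64.0% in member windows and 60.3% in all, and the observed over expected CpG ratio was 0.747 and 0.743. Windows were found for 38 of the genes and not for Runx1t1, Sparcl1, Heph, Mtss1l, Trf, Rnf122, Lamc1 and Phlda1.

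Cxcr4, the receptor of the chemokine CXCL12, had even values within both groups. It was at 8.0, 7.6 and 8.6 RPKM in infant and 1.8, 1.7 and 1.6 in young adult EC, a ratio of means of 0.211. Its ligand gene Cxcl12 was not called (38.3 RPKM in infant EC, log2 change 0.05, adjusted p = 0.917). Ackr3, the scavenger receptor that binds the same ligand, moved the other way and rose by 1.3 on the log2 scale (adjusted p = 0.00209), from 20.4, 17.8 and 21.7 to 62.7, 47.1 and 43.5 RPKM. Ackr3 was itself steady across infant libraries.

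Hhip binds hedgehog ligands and limits their signal. It was at 15.9, 15.4 and 14.4 RPKM in infant and 2.1, 4.0 and 3.3 in young adult EC, with young adult 1 the lowest. Among 7 other hedgehog genes only the coreceptor gene Boc was called lower (log2 change -0.98, adjusted p = 0.0184), and that call was lost without infant 1, young adult 1 or young adult 2 (adjusted p up to 0.0664). At an unadjusted p under 0.05, 5 of the 7 were lower and none higher. The windows of Hhip, Plk2 and Trp53inp2 were those with TGACGTCA, 5.77% of member windows against 2.97% of all.

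Tnfrsf21 encodes death receptor 6 and was at 5.5, 4.9 and 6.1 RPKM in infant and 1.1, 1.4 and 2.0 in young adult EC. Il1rap, the shared subunit of receptors of the IL-1 family, was at 17.5, 13.8 and 14.6 in infant and 6.5, 6.1 and 7.9 in young adult EC. The other 3 transcript rows of Il1rap missed the limits, with ratios of young adult to infant means of 0.492 to 0.558. Its partner genes Il1r1 (log2 change 0.24, adjusted p = 0.106) and Myd88 (0.21, adjusted p = 0.271) were not called, while Il1rl2 fell by 1.5 on the log2 scale (adjusted p = 0.00157). Ager, the receptor for advanced glycation end products, is best known from alveolar type I epithelial cells and was on the list of epithelial markers. PDPN, against which the cells were sorted, is also a marker of those type I cells, and their part in the Ager values was not tested. Ager was at 103.3, 102.8 and 122.2 RPKM in infant and 24.4, 50 and 59.3 in young adult EC, so that young adult values spread over 2.43-fold.

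The genes of adhesion and matrix had ratios of means from 0.157 to 0.481. Pcdh18, a protocadherin, was at 10.4, 10.0 and 12.1 RPKM in infant and 1.4, 1.8 and 1.9 in young adult EC. Itga4 encodes the alpha4 integrin, which binds VCAM1 and fibronectin, and was at 5.5, 4.3 and 5.4 in infant and 0.8, 0.7 and 1.3 in young adult EC. Itga4 was both the lowest in infant level and among the lowest ratios (0.184). Its usual partner Itgb1 was lower by 0.48 on the log2 scale, which did not reach the fold threshold. Its ligand Vcam1 rose from 3.7, 4.3 and 2.5 to 21.5, 18.9 and 14.5 RPKM, a log2 change of 2.11 (adjusted p = 0.000997).

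Lamc1, the gamma1 chain shared by most laminins of the vessel wall, was at 23.0, 21.1 and 27.3 RPKM in infant and 8.4, 9.7 and 9.5 in young adult EC. Of 7 other laminin chains, Lama2 (log2 change -2.56), Lama4 (-2.15), Lamb1 (-3.51) and Lamb3 (-0.82) were called lower, the last not without infant 1, infant 3, young adult 1 or young adult 2 (adjusted p up to 0.102). Unlike Lamc1, Lamb1 was uneven across infant libraries. The choice requires this of a gene that fell so far at the infant level and was neither chosen nor left out by name. Lamb1 was at 47.8, 7.3 and 41.4 RPKM in infant 1 to 3, with infant 2 far below the others. The genes left out by name belong to the same structure, since Col4a1 and Col4a2 encode type IV collagen chains and Nid1 encodes nidogen. In infant libraries they were at 159.8 to 201.8, 66.4 to 82.4 and 74.5 to 83.8 RPKM, and in young adult libraries at 64.9 to 75.4, 26.2 to 33.4 and 29.5 to 33.0.

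Sparcl1, a secreted matrix protein, was the most abundant of the adhesion and matrix genes, with 185.8, 172.4 and 201.4 RPKM in infant and 74.3, 95.5 and 61.4 in young adult EC. Mpzl1, an adhesion protein of the immunoglobulin family, was at 30.5 to 33.7 and 14.9 to 16.6. Chst2, a sulfotransferase for surface glycans, was at 9.7 to 11.4 in infant and 3.3 to 5.5 in young adult EC. Cldn3, a tight junction claudin of epithelia, was at 5.0, 6.1 and 5.0 and at 0.6, 2.3 and 2.8. Lgals3, a galectin that is abundant in macrophages, was at 7.1, 7.3 and 7.0 and at 1.0, 3.2 and 4.2. Cldn3 and Lgals3 thus combined small infant spreads with young adult values that spread over 4.67-fold and 4.20-fold.

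Of the genes of lipid, iron and ion transport, Scn7a, an atypical sodium channel, was the most abundant. It was at 468.2, 466.0 and 414.8 RPKM in infant and 193.8, 180.3 and 189.5 in young adult EC, with a young adult coefficient of variation of 3.67%. Apoe, the apolipoprotein that carries lipid between cells, was at 39.6, 33.9 and 32.5 and at 5.8, 9.6 and 10.4, a ratio of means of 0.243. Abca1, which loads cholesterol onto apolipoproteins, also fell (log2 change -1.53, adjusted p = 0.000997), as did the apolipoprotein receptor gene Lrp1 (log2 change -2.37, adjusted p = 0.0102). Mboat2, an acyltransferase for phospholipids, was at 14.5 to 17.6 in infant and 4.1 to 6.0 in young adult EC, and Acbd5, a peroxisomal acyl-CoA binding protein, at 23.4 to 29.9 and 13.5 to 13.9. Acbd5 had the smallest drop of the 46, with a ratio of 0.531.

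Trf encodes transferrin, which carries iron in plasma, and was at 92.7, 81.7 and 96.5 RPKM in infant and 15.7, 26.4 and 45.5 in young adult EC. The young adult values of Trf spread over 2.90-fold. Heph, a ferroxidase that oxidises exported iron, was at 10.0 to 11.7 and 4.9 to 5.3. Cp, the related ferroxidase ceruloplasmin, fell by 1.99 on the log2 scale (adjusted p = 0.00320), and the transferrin receptor gene Tfrc fell by 0.81 (adjusted p = 0.0110), the latter not without infant 3, young adult 1 or young adult 2 (adjusted p up to 0.0515). The iron exporter gene Slc40a1 (log2 change -0.51, adjusted p = 0.0984) and the ferritin genes Fth1 (-0.12, adjusted p = 0.686) and Ftl1 (-0.15, adjusted p = 0.613) were not called. Of 9 other tested genes of iron handling, 5 were lower and none higher at an unadjusted p under 0.05 with limma. Selenbp1, a selenium-binding methanethiol oxidase, was at 67.9, 76.5 and 72.1 in infant and 19.8, 30.5 and 37.9 in young adult EC.

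Plk2, a polo-like kinase induced by stress and growth signals, was the most abundant of the 46. Its RPKM was 545.0, 618.3 and 483.9 in infant and 241.9, 138.0 and 228.0 in young adult EC, with young adult 2 the lowest. The cell division kinase gene Plk1 was also called lower (log2 change -1.25, adjusted p = 0.0252), a call that was kept only in the fit without infant 2 among the 6 that drop a library (adjusted p up to 0.0896). Plk3 and Plk4 were not called. Syk, a tyrosine kinase best known from blood cells, was at 5.3, 5.3 and 5.8 and at 1.1, 1.3 and 1.8. Of 5 tested genes that act with Syk in leukocytes, Blnk (log2 change -0.95, adjusted p = 0.0270) and Btk (-0.92, adjusted p = 0.0154) were called lower. Fcer1g (-1.16, adjusted p = 0.0812) and Tyrobp (-1.22, adjusted p = 0.122) were not called with limma. At an unadjusted p under 0.05, 4 of the 5 were lower and none higher. The call of Blnk was lost without infant 1, infant 3, young adult 1 or young adult 2 (adjusted p up to 0.0997) and that of Btk without infant 3 or young adult 1 (adjusted p up to 0.0602). Phlda1, a regulator of growth and apoptosis signals, was at 13.5, 10.5 and 12.6 and at 2.9, 2.6 and 5.4, so that young adult 3 stood above the other young adult libraries. The phosphatase gene Ptpn4 was at 7.1 to 8.6 and 2.4 to 3.3, Mmd, first named from macrophage differentiation, at 6.5 to 7.0 and 2.3 to 3.0, and the ubiquitin ligase gene Rnf122 at 11.5 to 12.3 and 5.1 to 6.3.

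In the cytoskeleton and membrane traffic group, Gsn, the actin-severing protein gelsolin, had the lowest ratio of means (0.291). It was at 154.0, 141.0 and 135.7 RPKM in infant and 25.3, 60.5 and 39.7 in young adult EC. The 4 transcript rows of Gsn gave nearly the same ratio. Tpm1, a tropomyosin that stabilises actin filaments, was at 64.2, 57.5 and 68.7 and at 27.9, 32.2 and 34.4. Of the other 9 rows of Tpm1, 5 met the limits and their ratios ran from 0.432 to 0.518. Tpm2 fell by 2.63 on the log2 scale (adjusted p = 0.00215), while Tpm3 (0.10, adjusted p = 0.535) and Tpm4 (-0.66, adjusted p = 0.00582, under the fold threshold) were not called. Mtss1l, a membrane-bending protein, was at 6.3 to 7.8 and 2.3 to 3.2, the small GTPase gene Rap2a at 11.9 to 14.7 and 5.2 to 7.0, Reep1, which shapes the endoplasmic reticulum, at 20.2 to 25.8 and 9.2 to 11.9, and Ehd3, an ATPase of endosome recycling, at 9.0 to 10.2 and 4.2 to 4.7. None of the 4 other Rap genes and none of the 3 other Ehd genes was called with limma in either direction. At an unadjusted p under 0.05, 2 Rap genes were lower and 2 Ehd genes higher, Ehd1 by 0.80 on the log2 scale (adjusted p = 0.0124).

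3 of the 46 are neighbouring copies on chromosome 14, Tmem254a (chr14:25923298-25927672), Tmem254c (chr14:26063751-26067425) and Tmem254b (chr14:26203366-26207025 of GRCm38.p6), whose reads could be shared between copies, so that their separate values are uncertain. Tmem254c was at 44.9, 39.4 and 47.5 RPKM in infant and 12, 12.7 and 17.6 in young adult EC, and Tmem254b at 37.5, 32.7 and 39.0 and at 9.8, 10.8 and 14.6. Tmem254a was at 26.2, 22.3 and 27.1 and at 6.8, 7.3 and 10.5. The ratios of means were 0.321, 0.322 and 0.325 and the libraries kept the same order in each. Every run of 100 bases (the read length) of the reference transcripts of Tmem254b and Tmem254c occurred exactly in another copy, and 65.8% of those of Tmem254a did. The second start windows of Tmem254a and Tmem254c were 100% identical, and that of Tmem254b was 89.9% identical to either. In the first start windows Tmem254a and Tmem254c were 92.9% identical, whereas Tmem254b was 54.2% identical to Tmem254a and 58.7% to Tmem254c.

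The chromatin and transcription group held 7 genes with ratios of means from 0.352 to 0.492. Dnmt3a, the de novo DNA methyltransferase, was at 13.0, 10.0 and 12.2 RPKM in infant and 4.8, 4.3 and 5.6 in young adult EC. Those values belong to the shorter transcript that starts inside the gene, at position 3891744 of chromosome 12, and the window printed above precedes that start. The row of the longer transcript was at 11.8, 8.0 and 9.8 and at 3.9, 3.6 and 4.5, which missed the steadiness limit, and because both transcripts share most exons the rows are not independent. Of the other DNA methylation enzymes, the maintenance enzyme gene Dnmt1 (log2 change 0.29, adjusted p = 0.0510), Dnmt3b (0.22, adjusted p = 0.215) and Tet2 (-0.34, adjusted p = 0.0729) were not called. Tet1 fell by 0.87 on the log2 scale (adjusted p = 0.00569), a call that was lost without infant 1 (adjusted p up to 0.0299, under the fold threshold).

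Jarid2 guides the Polycomb repressive complex 2 to its targets and was at 13.1, 12.8 and 11.4 RPKM in infant and 5.2, 5.9 and 6.2 in young adult EC. None of 9 other genes of that complex was called with limma, although at an unadjusted p under 0.05 3 were lower and 2 higher. Of these, Ezh2 was lower by 0.75 on the log2 scale (adjusted p = 0.00456) and Ezh1 higher by 0.68 (adjusted p = 0.00534), both under the fold threshold. Prdm1, the transcriptional repressor BLIMP1, was at 18 to 21.1 and 5.1 to 8.2. Zfp46, a zinc finger protein, was at 11.7 to 14.6 and 4.5 to 4.9, Trp53inp2, which acts in autophagy and transcription, at 10.5 to 11.4 and 4.3 to 5.7, and Runx1t1, a transcriptional corepressor, at 5.5 to 6.1 and 2.5 to 3.3.

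Nr1d2, the nuclear receptor REV-ERB beta of the circadian clock, was at 7.9, 8.7 and 6.9 RPKM in infant and 2.5, 2.2 and 3.6 in young adult EC. Of 11 other clock genes, 5 fell and none was called higher (8 and 1 at an unadjusted p under 0.05): Per2 (log2 change -2.13, adjusted p = 0.00092), Cry2 (-1.92, adjusted p = 0.00148), Per3 (-1.5, adjusted p = 0.00366), Rora and Cry1. The call of Rora was lost without infant 3, young adult 1 or young adult 2 (adjusted p up to 0.0687), and that of Cry1 with quantile normalization. The activator gene Clock (-0.07, adjusted p = 0.763) and the close relative Nr1d1 (-0.95, adjusted p = 0.0653) were not called, and Arntl was higher by 0.57 (adjusted p = 0.0127), under the fold threshold. The time of day at which lungs were taken was not given in the sources used here, and its part in these values was not tested.

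Eif2s3y, a subunit gene of a translation initiation factor on the Y chromosome, was at 15.1, 19.3 and 17.1 RPKM in infant libraries and listed at 0 in all young adult libraries. The other Y-linked genes measured had the same pattern. Ddx3y was at 20.6, 16.5 and 21.9, Uty at 6.4, 4.3 and 5.9 and Kdm5d at 2.1 in each infant library, and all were listed at 0 in young adult EC. The X-linked counterpart Eif2s3x was at 16.5 to 18.3 and 18.6 to 20.3 (log2 change 0.14, adjusted p = 0.270), and its reference transcript shares no run of 100 bases with that of Eif2s3y. Xist, which is transcribed from the inactive X chromosome, was at 7.6 to 8.7 in infant and 12.5 to 15.6 in young adult EC. Every infant library thus held Y-linked transcripts together with Xist, while the young adult libraries held Xist alone. In this way the make-up by sex differs between all infant and all young adult libraries. Its effect and that of age cannot be told apart for the autosomal and X-linked genes of the 46. Eif2s3y can be read only where a Y chromosome is present, and no Y-linked gene named here had a value above 0 in young adult libraries. Of the others, 43 lie on 16 autosomes and Prrg3 and Heph on the X chromosome.

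The spread between young adult libraries, which the choice did not limit, differed widely among the 46. In 14 genes the highest young adult value was at most 1.3 times the lowest, as in Scn7a, Cxcr4, Zfp46, Heph, Ehd3 and Acbd5. In 7 genes, F3, Cldn3, Lgals3, Trf, Ager, Gsn and Phlda1, it was at least 2 times the lowest. Young adult 1 was the lowest young adult library for 24 of the 46 (52.2%, against 42.5% of all genes at the infant level), young adult 2 for 15 and young adult 3 for 5, with 2 ties. Young adult 3 was the highest for 32.

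In 18 of the 46 (39.1%), young adult 1, 2 and 3 ranked in the same order as for the summed epithelial markers, against 26.6% of all 7176 genes at the infant level. The steepest of these were Cldn3, Lgals3, Trf, Ager, Selenbp1, Tnfrsf21 and Apoe, whose highest young adult value was 1.79 to 4.67 times the lowest. The epithelial sum, Ager left out, varied 4.59-fold and the leukocyte sum followed the same order. Most of the leukocyte sum was Lyz2, at 134.3, 285.6 and 515.5 RPKM in young adult 1 to 3. The median leukocyte marker, at 0.5, 2.7 and 2.3, did not keep that order. Among defining markers, the surfactant gene Sftpc was at 3733.9, 4683.1 and 4583.0 RPKM in infant and 1450.9, 2826.7 and 4883.1 in young adult libraries, while Epcam was at 0.6 to 1.1 and 0 to 0.5. The leukocyte marker Ptprc, against which cells were sorted, was at 3.0 to 7.0 and 0.2 to 1.8. In young adult 3 and infant 3 the epithelial sums were 8320 and 8361, mostly from Sftpc and from Scgb1a1, which was at 3138.3 and 3560.6. The median of the 11 markers was 7.4 and 14.2 RPKM in these libraries. Ager was at 59.3 and 122.2, Trf at 45.5 and 96.5, and Selenbp1 at 37.9 and 72.1, gaps that the choice requires. The part of epithelial and leukocyte RNA in the values of these genes was not tested.

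**Figure D4:**
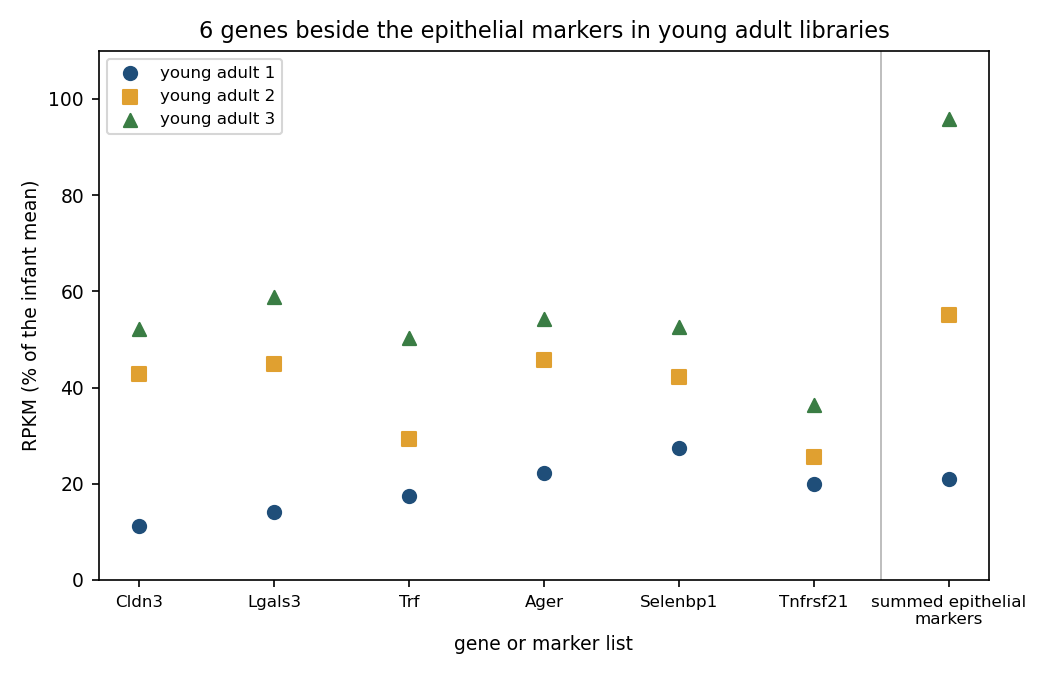
The y axis gives RPKM in each young adult library as percent of the infant mean, for the 6 of the 18 genes with the largest young adult range and for the summed RPKM of 11 epithelial markers. Most of that sum came from Sftpc and Scgb1a1. All 6 genes and the markers are lowest in young adult 1 and highest in young adult 3, where the marker sum of 8320 lies close to the infant libraries. The 6 genes could not reach that level, because the choice holds them to 0.6 of the lowest infant value.

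Of 430 tested genes on 15 pathway lists, the 46 left out, 115 (26.7%) were called lower and 14 higher, against 8.1% and 3.33% of all tested genes. Their median log2 change was -0.35 against -0.07 over all tested genes. Only the 46 were taken out, so Nid1, Col4a1 and Col4a2, which met the same limits, count wherever a list holds them. In the basement membrane list 12 of 19 were called lower, with a median of -1.02, the largest fall being that of Lamb1 (log2 change -3.51, adjusted p = 0.00820). Of 32 integrins and adhesion genes 7 were lower and 3 higher, with Cd9, a tetraspanin, rising by 1.35 (adjusted p = 0.00439) and Itga9 falling by 1.60 (adjusted p = 0.0358). Of 49 genes of cytoskeleton and motility 12 were lower and 1 higher, with Dbn1 at -3.26 (adjusted p = 0.00366). The list of sprouting and tip cells, which holds Cxcr4, had 3 of 27 lower and 1 higher, with Fscn1 at -2.09 (adjusted p = 0.00127) and Vegfc at 1.28 (adjusted p = 0.00207). Chromatin and DNA methylation, the list of Dnmt3a and Jarid2, had 4 of 35 lower and none higher (17 and 3 at an unadjusted p under 0.05), with Uhrf1 at -1.14 (adjusted p = 0.0155).

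Among lists without a member, collagen folding and crosslinking had 10 of 28 lower, led by Pcolce (log2 change -2.53, adjusted p = 0.00509), and 1 higher, P4ha2 (1.12, adjusted p = 0.000641). The list of imprinted and fetal growth genes had 9 of 18 lower, with Mest at -2.61 (adjusted p = 0.000997), and cell cycle genes 15 of 39, with Top2a at -2.42 (adjusted p = 0.0121). For TGFb and BMP signalling 9 of 36 were lower and 2 higher, with Ltbp2 at -4.63 (adjusted p = 0.00649) and Bmp6 at 1.57 (adjusted p = 0.00284). For FGF and receptor tyrosine kinases 10 of 29 were lower and 3 higher, with Pdgfra at -4.29 (adjusted p = 0.0255) and Tek at 1.25 (adjusted p = 0.00712). Notch signalling had 2 of 19 lower and 1 higher, with Heyl at -2.07 (adjusted p = 0.00241) and Dll1 at 1.51 (adjusted p = 0.00452). The remaining lists had between 12.5% and 31.2% called lower, with Cyr61 (Hippo and YAP targets, -2.32, adjusted p = 0.00946), Wnt5a (Wnt signalling, -3.82, adjusted p = 0.00694), Tbx5 (developmental transcription factors, -2.82, adjusted p = 0.00799) and Robo2 (axon guidance, -2.59, adjusted p = 0.0188) falling most, and Gata2 (0.84, adjusted p = 0.0407) and Sema3g (1.16, adjusted p = 0.00532) rising. Genes with large falls here were uneven across infant libraries, as in Pdgfra at 87.2, 2.6 and 66.8 RPKM, Ltbp2 at 71.4, 7.2 and 67.0 and Wnt5a at 40.8, 5.1 and 31.6. The removal of the 46 requires this of those at the infant level, except for Nid1, Col4a1 and Col4a2, which met both limits. Pdgfra is also on the list of fibroblast markers, Heyl on that of mural cell markers and the Tfrc named above on that of erythroid markers, whose sums were lower in young adult libraries, and the part of those cells in these values was not tested.

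The calls of Itga9, Gata2, Pdgfra and Robo2 were lost in 5 of the 6 fits that left out 1 library, all but the fit without infant 2, with adjusted p up to 0.120, 0.142, 0.0881 and 0.0736. That of Uhrf1 was lost without infant 1, infant 3, young adult 1 or young adult 2 (adjusted p up to 0.0669) and that of Top2a without young adult 1 or young adult 2 (adjusted p up to 0.0517). Scaling without globin genes also ended the call of Gata2, quantile normalization those of Gata2, Itga9, Uhrf1, Lamb3, Tet1, Tfrc, Plk1, Blnk and Btk, and scaling to the same median those of Lamb3 and Tfrc. A pseudocount of 5 ended the calls of all these and those of Boc, Cry1, Pdgfra, Per3, Rora and Vegfc.

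**Figure D5:**
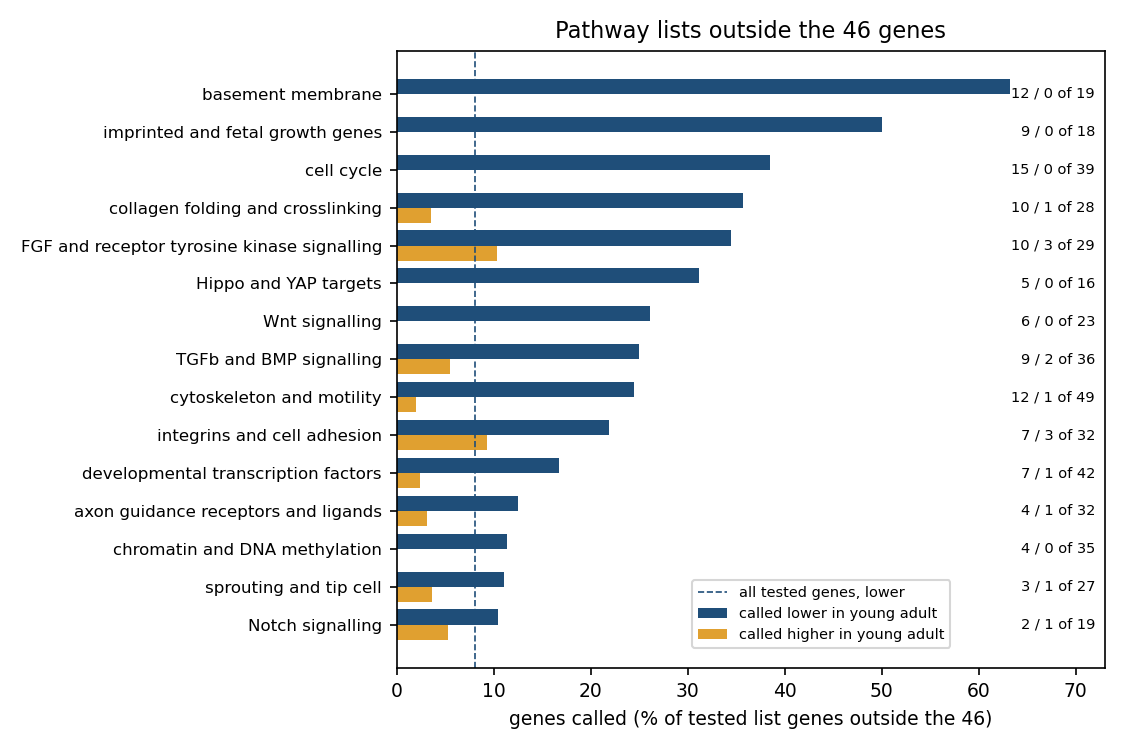
Bars give the share of tested genes outside the 46 that limma called lower (blue) or higher (yellow) in young adult EC for each pathway list, with the numbers of genes lower / higher of tested at the right and a dashed line at the 8.1% of all tested genes that were called lower. Basement membrane genes lead with 12 of 19. The lists of Notch signalling (10.5%), sprouting and tip cells (11.1%), chromatin and DNA methylation (11.4%) and axon guidance (12.5%) lie close to the line. Of all tested genes 3.33% were called higher, a share that is not drawn.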

How the data were processed

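RNA-seq libraries of sorted lung EC from 3 infant and 3 young adult mice were analysed, with groups and replicate numbers read from the library titles. The authors aligned reads of 100 bases to mm10 with STAR, counted on RefSeq and tested with DESeq2, with versions not given in the sources used here. The deposited values were RPKM, 1 row per transcript, rounded to 1 decimal. Counts were not used here, so sequencing depth is unknown, no counting error is attached to a value, and limma took the place of the study's count test. Because RPKM share out the mapped reads of a library, abundant globin transcripts lower the other values of an infant library.

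Symbols turned into dates by a spreadsheet were restored in 24 rows, and the row with the highest mean RPKM was kept for each gene. The 12458 genes that reached an RPKM of 1 in any library were fitted by age group alone, on log2(RPKM + 1), with limma 3.58.1 (R 4.3.3, trended eBayes) and Benjamini-Hochberg adjustment. A gene was called at an adjusted p under 0.05 and a fold above 1.75, and fold changes of low genes are understated by the pseudocount of 1. The p-values measure the spread between these libraries, which may be technical in part. In data simulated for this comparison over 12458 genes, 87.5% of 200 genes changed by 1.5 on the log2 scale were called and 8 unchanged genes were. The simulated noise was independent between genes and libraries, so these figures do not cover shifts shared by many genes, such as those of infant 2.

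Same-numbered libraries did not deviate together (correlations 0.03, -0.11 and -0.02), so the numbers were not taken as pairs. The genes, their roles, the 15 pathway and 6 marker lists, the 18 sets of partner genes and the 9 motifs were chosen with earlier results of these data known. The text names every gene of the 46 with values, gives all libraries for those on a list and for the 12 with the lowest ratio and the 12 with the highest infant mean, names 3 genes on either side of each limit, and names the called gene with the largest fall and rise of each pathway list, apart from 1 that is not reported here. Other genes named beside a member belong to its partner set. Of the 106 tested partner genes 28 were called lower and 3 higher. Positions and promoter sequences are from RefSeq on GRCm38.p6, whose coordinates equal those of mm10. Alternatives were other pseudocounts, filters, scalings, limits, a replicate block and leaving out each library. Scaling to the same median was added after the data were seen.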

Additional observations from a re-analysis of the deposited data

How the results depend on the processing

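The number of genes that met the rule moved with the limits and with the libraries, and which of the 46 met it moved with the limits and the scaling. With steadiness limits of 1.2 and 1.5, 24 and 78 genes met the rule, with fall limits of 0.5 and 0.7, 22 and 85, and with an infant level of 1, 105. Leaving out 1 library gave 50 to 415 genes. The 415 came without infant 2, while 76, 77 and 76 came without infant 1, infant 3 and young adult 3. In those fits 45 or 46 of the 46 were kept, Itga4 being the one lost without infant 1 or infant 3. This is no check on the 46, because a gene within the steadiness and fall limits stays within them with fewer libraries. Only the limit on the infant mean could remove a gene, and it removed Itga4. The larger numbers of genes without 1 library are in part built in for the same reason. Scaling without globin genes gave 48 genes (34 of the 46 kept), quantile normalization 43 (39 kept), scaling to the same median 38 (all among the 46) and the mean over transcript rows 44 (Dnmt3a and Il1rap lost). The median log2 ratio of the 46 was -1.41, and -1.51, -1.37 and -1.34 under these 3 scalings, which moved the median over all genes from -0.08 to -0.19, 0.05 and -0.02.

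Called genes numbered 1424, and 578 with a pseudocount of 5, 663 with a filter at a mean RPKM of 5 and 3178 with no fold threshold. Without 1 library they numbered 846 to 1875, a change of over 1.5 times without infant 1 (927), young adult 1 (846) or young adult 2 (867). Pathway list genes called lower numbered 115, and 52 and 56 with the pseudocount of 5 and the mean filter. Without 1 library they numbered 63 to 139, moving most without infant 1 (70), infant 3 (75), young adult 1 (65) and young adult 2 (63). The replicate block gave 1371 called genes and 109 list genes and ended the calls of Itga9, Lamb3 and Boc, and since the numbers mark no shared litter or day it is given here only. Values are rounded to 0.1 RPKM, which limits the ratios of genes with a young adult value near 1. No other alternative listed changed these counts by over 1.5 times.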

Other observations

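The mirrored limit, a lowest young adult value of at least the highest infant value divided by 0.6 with the same steadiness across infant libraries, was met by 23 genes. These values chose the genes, so they are given without a test. They included Vwf, the von Willebrand factor stored by EC, at 33.8, 29.4 and 28.4 RPKM in infant and 157.1, 128.1 and 103.8 in young adult libraries. Prss23, a secreted protease, was at 7.3, 7.1 and 6.9 and at 57.8, 40.1 and 38.5. Tgm2, which crosslinks matrix proteins, was at 14.4, 16.5 and 14.5 and at 71.1, 67.5 and 71.9, with all young adult values within a narrow range. Vegfa, the vascular growth factor, was at 5.8, 6.3 and 6.5 and at 19.4, 16.8 and 14.9. Genes of the interferon response were among them as well, with Iigp1 at 18.4 to 22.7 and 52.5 to 88.6 and Gbp4 at 17.9 to 21.4 and 44.3 to 76.7. The glutathione transferase genes Gstp1 (96.5 to 119.8 and 276.6 to 335.1), Gstp2 (48.5 to 62.1 and 137.4 to 167.0) and Gstm2 (43.8 to 55.6 and 99.5 to 102.5) were also in this group, the values of the close copies Gstp1 and Gstp2 being uncertain. Of the steady genes 0.520% met the mirrored limit and 1.11% the limit for the fall, against 10.2% meeting the fall limit among genes that were not steady.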
